A study of Mus musculus with 5 samples.

Results

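Among the regions that macroH2A1.2 occupied in 3T3-L1 pre-adipocytes, 539 were single wide stretches in pre-adipocyte replicate 1 that were listed as 3 or more separate regions in each of the mature adipocyte replicates. They were chosen by a rule on the region calls themselves. A wide region was an autosomal region of pre-adipocyte replicate 1 that was 10000 to 25000 bp long, and it was kept when at least 3 regions of mature adipocyte replicate 1 and at least 3 of mature adipocyte replicate 2 overlapped it by 1 bp or more. The rule was met by 539 of 6588 wide regions, that is 8.18%, out of 36468 regions of any length in that sample and 195585 in the 4 samples together. These 539 are called broken-up regions here, and the regions of another sample that overlap one are called its pieces. Because the rule was selected on pre-adipocyte replicate 1 and on both mature replicates, every count of pieces in those 3 samples is a description. The readings that the rule did not use are those of pre-adipocyte replicate 2, of the gene annotation and of each mature replicate where the regions were picked with the other one.

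The cells were 3T3-L1, a mouse fibroblast line that turns into fat cells under a hormonal cocktail, with stable lentiviral expression of macroH2A1.2 fused to GFP. Chromatin bound to the fusion protein was pulled down with an anti-GFP antibody (ab290) from undifferentiated pre-adipocytes (2 samples) and from cells differentiated into mature adipocytes (2 samples, given insulin, dexamethasone and the phosphodiesterase inhibitor IBMX for 60 h and then insulin medium), and a library made without antibody served as the control for all 4. All cells carried the transgene, so the occupancy is that of an overexpressed, tagged protein in 1 line, and the study calls the replicates biological ones without saying whether they were separate cultures. Conditions follow the sample titles, since the description fields name the undifferentiated state for the mature samples too.

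MacroH2A1.2 is a splice form of macroH2A1, a variant of histone H2A with a large globular macrodomain at its end. Nucleosomes that carry macroH2A spread over long stretches of chromatin rather than standing at sharp peaks, and they are typical of the inactive X chromosome and of silent genes, although they also occur at some active ones. For such broad marks a caller joins neighbouring enriched windows into islands, so the number and width of the islands depend on how well each window stands out of the background as well as on the protein. The caller used for these data, SICER, worked in 200-bp steps, and no 2 neighbouring regions in any sample lay closer than 800 bp. A gap of 800 bp is therefore the smallest break that could be listed.

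The samples differed in how their regions were cut, and pre-adipocyte replicate 1 stood apart. Its median region was 5800 bp long, against 3000 bp in pre-adipocyte replicate 2, 3600 bp in mature adipocyte replicate 1 and 3400 bp in mature adipocyte replicate 2. Library sizes relative to the control library were 1.20, 0.549, 1.23 and 1.21 in the same order, so pre-adipocyte replicate 2 was also the shallowest. Wide autosomal regions numbered 6588, 1042, 4878 and 4520. Regions that were wide in replicate 1 and in pieces elsewhere therefore had to be read against replicate 2 of the same condition, and breaks were not particular to the mature state. Wide regions of pre-adipocyte replicate 1 overlapped 3 or more regions of pre-adipocyte replicate 2 in 17.6% of cases, of mature adipocyte replicate 1 in 19.5% and of mature adipocyte replicate 2 in 21.7%. The name that the data bear out is thus "wide in pre-adipocyte replicate 1 and in pieces in both mature samples", not "in pieces after differentiation".

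Sequence is shown for 4 promoters inside broken-up regions, so that the breaks can be set against what lies at a start site. RefSeq lists 128 promoter windows, of 111 genes, with a start site in a broken-up region. Adamts18, which encodes a secreted metalloproteinase, was taken because its start lay outside the pieces of both mature samples. Golga7b, a relative of the Golgi protein Golga7, and Pdk4, a kinase that restrains pyruvate dehydrogenase, had their starts inside pieces of both. The start of Anxa11, a calcium-dependent phospholipid-binding annexin, lay in a piece of mature adipocyte replicate 1 and outside those of mature adipocyte replicate 2. Pre-adipocyte replicate 2 covered none of the 4 starts. The first 3 were picked after the values were seen, as CpG-rich examples of each case. The 250 bases before each start site are printed 5′ to 3′ on the gene's strand (RefSeq, GRCm38.p6), in lower case with every CpG in capitals. The windows are chr8:113848840-113849089 on the minus strand (Adamts18), chr19:42255489-42255738 on the plus strand (Golga7b), chr14:25841905-25842154 on the plus strand (Anxa11) and chr6:5496279-5496528 on the minus strand (Pdk4).
Adamts18: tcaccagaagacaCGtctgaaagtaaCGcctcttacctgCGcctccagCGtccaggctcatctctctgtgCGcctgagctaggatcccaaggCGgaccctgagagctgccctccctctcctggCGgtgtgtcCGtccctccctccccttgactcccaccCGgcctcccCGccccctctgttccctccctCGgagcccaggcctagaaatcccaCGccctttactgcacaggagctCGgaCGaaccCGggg
Golga7b: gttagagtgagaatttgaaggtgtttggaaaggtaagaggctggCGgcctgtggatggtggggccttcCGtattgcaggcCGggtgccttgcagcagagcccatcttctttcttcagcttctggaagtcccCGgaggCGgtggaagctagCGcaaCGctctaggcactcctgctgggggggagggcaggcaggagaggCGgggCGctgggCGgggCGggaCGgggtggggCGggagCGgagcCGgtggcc
Anxa11: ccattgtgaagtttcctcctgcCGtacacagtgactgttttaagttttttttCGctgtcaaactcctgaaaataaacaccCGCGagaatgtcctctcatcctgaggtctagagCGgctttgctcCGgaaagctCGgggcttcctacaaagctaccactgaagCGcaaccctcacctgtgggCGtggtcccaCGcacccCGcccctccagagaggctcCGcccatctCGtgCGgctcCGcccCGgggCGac
Pdk4: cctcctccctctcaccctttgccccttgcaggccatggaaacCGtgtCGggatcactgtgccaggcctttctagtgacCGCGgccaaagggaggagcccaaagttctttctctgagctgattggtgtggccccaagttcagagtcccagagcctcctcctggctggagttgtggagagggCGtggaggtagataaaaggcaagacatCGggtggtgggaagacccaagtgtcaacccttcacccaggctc
These stretches held 15, 15, 17 and 6 CpG. CpG-rich promoters were uncommon in broken-up regions as a whole. Of the 128 windows of 300 bases (250 before and 50 after the start), 13.3% held 10 or more CpG, against 44.0% of 31396 autosomal promoters. Many of the 128 belong to loci with provisional symbols (Gm, Rik or LOC), and some are starts of 1 locus a few bases apart. The promoters were not divided by kind of gene. The other wide regions gave 13.2% of 887 windows, so the low share was common to wide regions, broken up or not. The median GC content was 49.2% in broken-up regions, 48.3% in the other wide regions and 53% over all promoters. Start sites lay in pieces of both mature samples for 57 of the 128 windows, in a piece of a single mature sample for 56, and outside the pieces of both for 15. At least 10 CpG were held by 4, 10 and 3 of these, that is 7.02%, 17.9% and 20%.

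The broken-up regions covered 9.83 Mb in all and were long for their class. Their median length was 18600 bp, against 13000 bp for the 6049 wide regions that did not meet the rule. The share that met the rule rose with each step of length, from 1.91% of 2728 regions between 10000 and 12500 bp to 28.6% of 322 regions between 22500 and 25000 bp. A longer region has more room for 3 pieces, so the readings of pre-adipocyte replicate 2, the held-out readings and the overlaps with genes are also given with the other wide regions weighted, in bins of 2500 bp, to the lengths of the regions they are set against. Other comparisons are matched for length only where this is stated. ChIP reads per broken-up region in pre-adipocyte replicate 1 ranged from 281 to 1099, with a median of 648. The fold enrichment over control, scaled to library size, had a median of 1.63 and ran from 1.12 to 3.12. In the other wide regions the median was 1.52. The mean fold was 1.69 in broken-up regions and 1.54 in the others at the same lengths. ChIP reads per kb went the other way, with means of 35.2 in broken-up regions and 37.1 in others at the same lengths. The higher fold went with fewer control reads per kb, with means of 17.8 and 20.5. A fold of 2 or more was seen in 84 broken-up regions (15.6%) and in 464 others (7.67%).

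In the mature samples most broken-up regions only just met the rule. Mature adipocyte replicate 1 had 3.32 ± 0.587 pieces and mature adipocyte replicate 2 had 3.36 ± 0.612 (mean ± SD over 539 regions), and neither had more than 6 in any region. Exactly 3 pieces in both replicates were found in 301 regions (55.8%), and 4 or more in both in 60 (11.1%). No region had 5 or more in both. The replicates gave the same number in 331 regions (61.4%), differed by 1 in 174 and by 2 or more in 34. The pieces nonetheless left little of the stretch empty, since the median region was covered over 74.2% of its length in mature adipocyte replicate 1 and 72.7% in mature adipocyte replicate 2. A piece also often reached beyond the wide region, in 454 of 539 regions for mature adipocyte replicate 1 and in 446 for mature adipocyte replicate 2. Just inside the rule stood 479 regions whose lower count was 3, with a median length of 18000 bp. Just outside stood 1098 regions with 2 pieces in one mature sample and 3 or more in the other, with a median length of 15400 bp and a median coverage of 76.5% in mature adipocyte replicate 1 and 75% in mature adipocyte replicate 2.

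**Figure D1:**
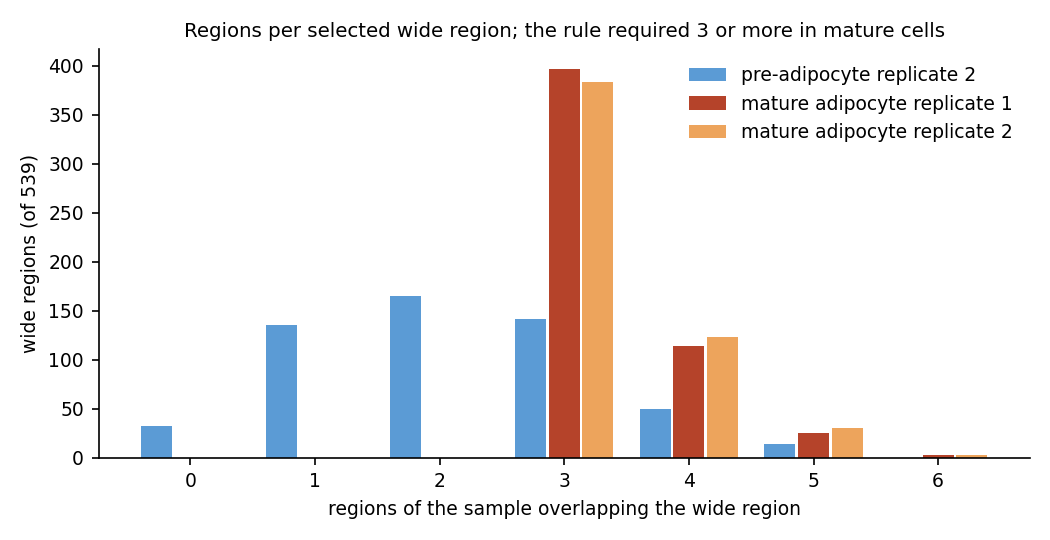
Number of regions of each of the 3 other samples that overlap each of the 539 broken-up regions. The x axis is the number of overlapping regions, the y axis is the number of broken-up regions, and bars are coloured by sample. Mature samples start at 3 because the rule required it, while pre-adipocyte replicate 2, which the rule did not use, has 206 regions at 3 or more and 32 at 0.

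Pre-adipocyte replicate 2 showed the same stretches in pieces, or hardly at all, far more often than as 1 wide region. It had no region in 32 of the 539, 1 region in 136, 2 regions in 165 and 3 or more in 206. Those 206 are 38.2% (95% exact binomial interval 34.1 to 42.5%, counting error only), against 17.6% of all wide regions. Only 1 of the 539 lay wholly inside a single region of pre-adipocyte replicate 2, and in 38 (7.05%) a single region took up at least 50% of the length. These counts were not made for the other wide regions. The widest region took up a median of 24.3% of the length, against 26.8% in other wide regions. The median covered share was 41.0%, which is 32.5 percentage points below the mean of the medians of the mature samples. Other wide regions showed the same, with a median of 38.7% in pre-adipocyte replicate 2. Their medians were 74.5% in mature adipocyte replicate 1 and 72.5% in mature adipocyte replicate 2. The lower coverage went with the library size of 0.549 in this sample, and the part of depth in it was not tested. Pre-adipocyte replicate 2 had as many pieces as mature adipocyte replicate 1, or more, in 28.8% of the broken-up regions, and as many as mature adipocyte replicate 2, or more, in 30.2%. The rule required at least 3 pieces in each mature sample and set no such limit in pre-adipocyte replicate 2. Lower counts there therefore follow in part from the choice of regions, and these shares are a description.

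Much of the excess over other wide regions was a matter of length. Among wide regions that did not meet the rule, 951 of 6049 (15.7%, interval 14.8 to 16.7%) had 3 or more regions of pre-adipocyte replicate 2, and weighting them to the lengths of the broken-up regions raised this to 32.0%. The 38.2% of the broken-up regions therefore lay 22.5 percentage points above the raw value and 6.25 above the weighted one. In each of the 6 length bins the broken-up regions had the higher share, from 9.62% against 5.34% in the shortest bin to 65.2% against 57.4% in the longest. The intervals of broken-up and other regions overlapped in every bin. Broken-up regions with no region of pre-adipocyte replicate 2 made up 5.94%, against 6.99% of others at the same lengths. Those with 1 region made up 25.2%, against 26.8%. The mean number of regions in pre-adipocyte replicate 2 was 2.16 in broken-up regions and 2.03 in others at the same lengths. The mean covered share went the other way, with 41.1% in the broken-up regions and 45.1% in others at the same lengths.

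**Figure D2:**
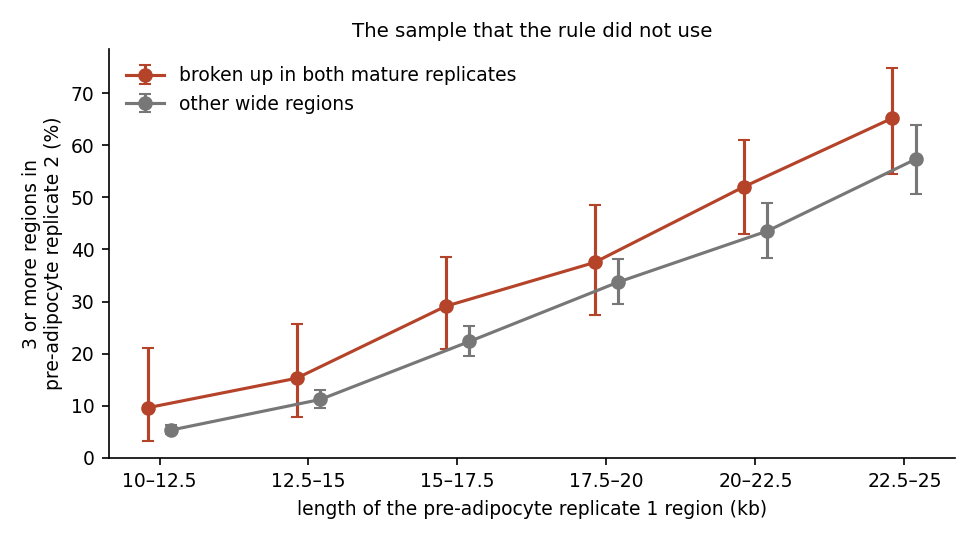
Share of wide regions of pre-adipocyte replicate 1 that overlap 3 or more regions of pre-adipocyte replicate 2 (y axis, %), by length of the wide region (x axis, kb). Red points are regions broken up in both mature samples, grey points the other wide regions, and bars are 95% exact binomial intervals over regions. Both rise with length, from 9.62% and 5.34% to 65.2% and 57.4%, and the red points lie slightly above the grey ones throughout.

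The same reading was made for all 12 ordered pairs of samples, which sets pairs of the same condition beside pairs of different conditions. Wide regions of mature adipocyte replicate 1 were in 3 or more pieces in mature adipocyte replicate 2 in 19.4% of 4878 cases (interval 18.3 to 20.5%), and those of mature adipocyte replicate 2 in mature adipocyte replicate 1 in 15.7% of 4520 (14.7 to 16.8%). From pre-adipocyte replicate 1 to mature cells the shares were 19.5% (18.6 to 20.5%) and 21.7% (20.7 to 22.7%). The interval of the first direction between mature replicates thus overlapped that of 19.5%, and the other direction lay below both. From mature cells to pre-adipocyte replicate 2 the shares were 16.2% and 17.3%. From mature cells to pre-adipocyte replicate 1 they were 6.42% and 5.51%, and from pre-adipocyte replicate 2 to pre-adipocyte replicate 1 the share was 2.11%. For every parent sample except pre-adipocyte replicate 1 itself, the lowest share was the one read in pre-adipocyte replicate 1, which had the longest regions. Wide regions of pre-adipocyte replicate 2, of which there were 1042, were in pieces in 8.73% and 8.35% of cases in the mature samples.

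**Figure D3:**
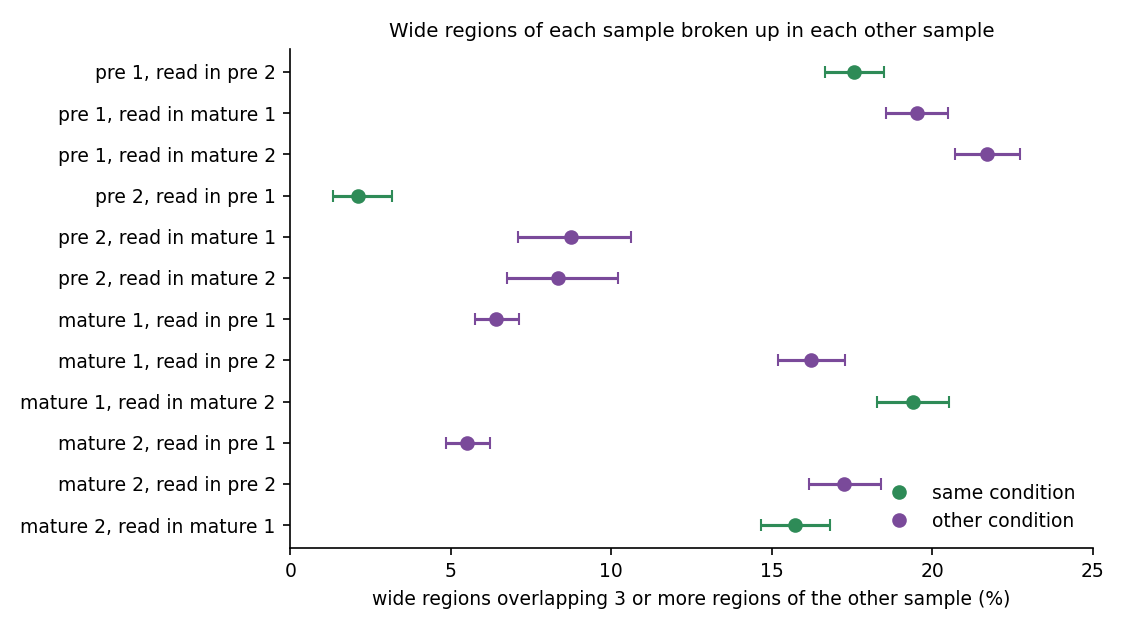
Share of the wide regions of one sample that overlap 3 or more regions of another (x axis, %), for the 12 ordered pairs (y axis, parent sample first; pre, pre-adipocyte; mature, mature adipocyte; followed by the replicate number). Points are shares, bars 95% exact binomial intervals, green marks pairs of the same condition and purple pairs of different conditions. Green and purple points overlap in range, from 2.11 to 19.4% and from 5.51 to 21.7%.

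The full rule, with breaks in 2 other samples at once, was met most often by pre-adipocyte replicate 1 with both mature samples. There it held for 8.18% of the wide regions (7.53 to 8.87%), against 6.03% (5.46 to 6.63%) for pre-adipocyte replicate 2 with mature adipocyte replicate 1 and 6.59% (6.0 to 7.21%) for pre-adipocyte replicate 2 with mature adipocyte replicate 2. With mature adipocyte replicate 1 as the parent, 212 of 4878 (4.35%) were in pieces in both pre-adipocyte replicate 2 and mature adipocyte replicate 2, 113 (2.32%) in both pre-adipocyte replicate 1 and mature adipocyte replicate 2, and 112 (2.30%) in both pre-adipocyte samples. With mature adipocyte replicate 2 as the parent, the same 3 readings, with mature adipocyte replicate 1 in the place of replicate 2, gave 164 (3.63%), 66 (1.46%) and 75 (1.66%) of 4520. Taking pre-adipocyte replicate 2 as the parent left 21 of 1042 wide regions (2.02%) in pieces in both mature samples.

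When the wide regions were picked with a single mature sample, the other one could be read without circularity. Of the 1286 wide regions in pieces in mature adipocyte replicate 1, 41.9% (39.2 to 44.7%) were also in pieces in mature adipocyte replicate 2, and 30.9% (28.4 to 33.5%) in pre-adipocyte replicate 2. Picking with mature adipocyte replicate 2 gave 1430 regions, of which 37.7% (35.2 to 40.3%) were in pieces in mature adipocyte replicate 1 and 30.3% (28.0 to 32.8%) in pre-adipocyte replicate 2. The mature reading thus exceeded the pre-adipocyte one by 11.0 and 7.34 percentage points. The intervals cover counting error only, and each side rests on 1 library. Regions that were not picked, weighted to the lengths of the picked ones, were in pieces in 23.9% and 20.8% of cases in the mature readings and in 25.4% and 24.5% in the pre-adipocyte readings. At matched lengths the picked regions thus exceeded the others by 18 and 16.9 percentage points in the other mature sample, and by 5.44 and 5.82 in pre-adipocyte replicate 2. This contrast went with the library size of 0.549 in pre-adipocyte replicate 2, whose part in it was not tested. Picking with pre-adipocyte replicate 2 instead gave 1157 regions, and 34.3% and 37.5% of them were in pieces in mature adipocyte replicates 1 and 2, against 28.1% and 30.6% of the others at matched lengths. Breaks thus recurred at the same wide regions mainly between the mature samples, and by 5.44 to 6.95 percentage points between pre-adipocyte replicate 2 and either of them.

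The pieces stood at partly the same positions. In 200-bp steps over the 539 regions, 62.8% of the length covered in either mature sample was covered in both. That overlap was 1.07 times the product of the covered shares within each region, and the ratio was 1.07 for pre-adipocyte replicate 2 with mature adipocyte replicate 1 and 1.05 with mature adipocyte replicate 2. Both mature samples left 12.5% of the length uncovered, where the product of the uncovered shares would give 9.17%. Other wide regions showed much the same, with 66.7% of the length covered in either mature sample covered in both. Their ratios were 1.06 for the mature samples and 1.07 for pre-adipocyte replicate 2 with each of them. In those regions both mature samples left 19.2% uncovered, against a product of 16.2%. Pre-adipocyte replicate 2 covered 27.8% of the steps that neither mature sample covered, 37.4% of those that 1 covered and 47.5% of those that both covered. In other wide regions the corresponding values were 19.8%, 32.5% and 52.4%. All 3 samples covered 26.1% of the length of broken-up regions, and 9.06% was covered in none of them.

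Most breaks were near the smallest length that could be listed. The median gap between neighbouring pieces was 1000 bp in mature adipocyte replicate 1 and 1200 bp in mature adipocyte replicate 2, and 2000 bp in pre-adipocyte replicate 2. Gaps of exactly 800 bp made up 33.6% of 1251 gaps in mature adipocyte replicate 1, 32.8% of 1270 in mature adipocyte replicate 2 and 19.2% of 655 in pre-adipocyte replicate 2. Gaps of at most 2000 bp made up 75.8%, 73.9% and 53.0%. Other wide regions had much the same gaps in the mature samples, with medians of 1000 bp in both and 35.3% and 33.3% at exactly 800 bp. When regions of the 3 other samples that lay closer than 2000 bp were joined, the rule was met by 14 regions instead of 539.

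**Figure D4:**
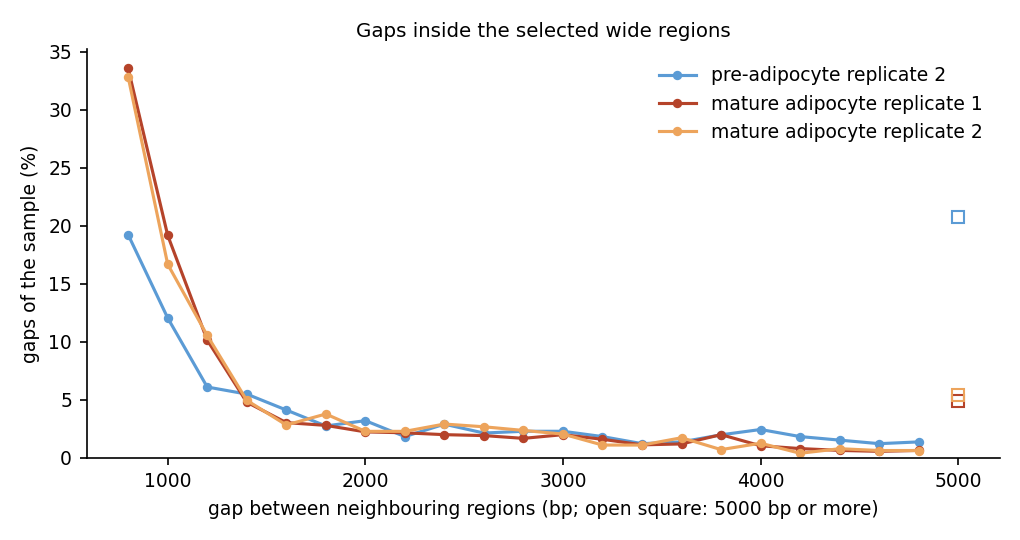
Lengths of the gaps between neighbouring pieces inside the 539 broken-up regions (x axis, bp, in 200-bp steps; open squares, 5000 bp or more), as a share of the gaps of each sample (y axis, %). Points are coloured by sample. In the mature samples 33.6% and 32.8% of gaps have the smallest length of 800 bp, against 19.2% in pre-adipocyte replicate 2.

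The control library, which is the same for all samples, had slightly fewer reads outside the pieces. This could be measured where every piece lay inside the wide region, as the control reads of the wide region minus those of its pieces. In 85 broken-up regions with pieces of mature adipocyte replicate 1, the control had 17.1 reads per kb outside the pieces and 18.5 inside, a ratio of 0.927 (95% interval 0.904 to 0.951, counting error only). For mature adipocyte replicate 2 the values were 16.8 and 18.8 in 93 regions, a ratio of 0.892 (0.872 to 0.913). For pre-adipocyte replicate 2 they were 17.7 and 18.1 in 166 regions, a ratio of 0.977 (0.961 to 0.993). In other wide regions the ratios were 0.910, 0.905 and 0.934 in the same order. A library without antibody reports how readily a stretch is sequenced and mapped, and its part in the breaks was not tested. The regions were called against this library, so its reads are not independent of where the pieces lie. The ChIP reads of the gaps are not listed in the tables and were not analysed here.

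With the reads of all pieces of a region pooled, the median fold over control was 1.77 in mature adipocyte replicate 1 and 1.80 in mature adipocyte replicate 2, against 1.63 in the unbroken region of pre-adipocyte replicate 1. It was 2.03 in the 507 broken-up regions with a piece in pre-adipocyte replicate 2. Folds of pieces hold only what was called in that sample, and pieces were taken whole, with what lay beyond the wide region. Folds of the wide region include what lies between, so these values are not comparable and say nothing of a change in enrichment. In the other wide regions the same medians were 1.69, 1.71, 1.52 and 1.91. ChIP reads per kb divided by library size had medians of 29.2 in pre-adipocyte replicate 1, 36.4 in pre-adipocyte replicate 2, 32.2 in mature adipocyte replicate 1 and 32.5 in mature adipocyte replicate 2. Control reads per kb over the whole wide region averaged 17.8 in broken-up regions, 19.4 in the other wide regions and 20.5 in those at matched lengths.

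Single loci show these features, starting with the 6 broken-up regions that had the most pieces in the mature samples. The first, chr6:28985001-29010000, lay 62.7 kb from the start of Lep, the gene of the adipocyte hormone leptin, which is the nearest protein-coding start. It held 812 ChIP reads in pre-adipocyte replicate 1 at a fold of 1.64. It had 3 regions in pre-adipocyte replicate 2, 4 in mature adipocyte replicate 1 and 6 in mature adipocyte replicate 2, and these covered 67.2%, 66.4% and 77.6% of its length. The first of the 6 reached only 200 bp into the wide region, so the pieces that count towards the rule are not all of like weight. Their folds, pooled, were 1.99, 2.03 and 2.16.

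The second, chr6:90785601-90806000, overlapped Iqsec1, which encodes an exchange factor for Arf GTPases. Here 6 regions of mature adipocyte replicate 1 and 4 of mature adipocyte replicate 2 stood opposite a single region of 13400 bp in pre-adipocyte replicate 2, which covered 65.7% of the stretch. This is the pattern of a stretch that is wide in both pre-adipocyte samples and in pieces in both mature ones. It was rare among the 539 regions, of which 38 had at least 50% of their length in 1 region of pre-adipocyte replicate 2. Some of these 38 also held further regions of that sample, such as chr16:10844801-10869400 with 4 in all. The 38 are therefore not all unbroken in both pre-adipocyte samples. The share of other wide regions with this pattern was not analysed here.

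The third, chr16:42383401-42403400, lay 52.8 kb from the start of Gap43, a protein of growing axons, and had 2, 6 and 4 regions in pre-adipocyte replicate 2 and mature adipocyte replicates 1 and 2. The fourth, chr15:79556801-79581800, overlapped Dmc1, the meiotic recombinase, with 3, 5 and 4 regions. The fifth, chr2:12814601-12839000, had 1, 5 and 4 regions and was covered over 15.6%, 65.6% and 41.8% of its length. The sixth, chr11:45038001-45062400, lay 433 kb from the start of Ebf1, a transcription factor of B cells and of fat cells, with 3, 5 and 4 regions. Coverage in pre-adipocyte replicate 2 thus ran from 15.6% to 67.2% over the 6, below both mature samples in every one except the locus near Lep, where mature adipocyte replicate 1 was at 66.4%.

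**Figure D5:**
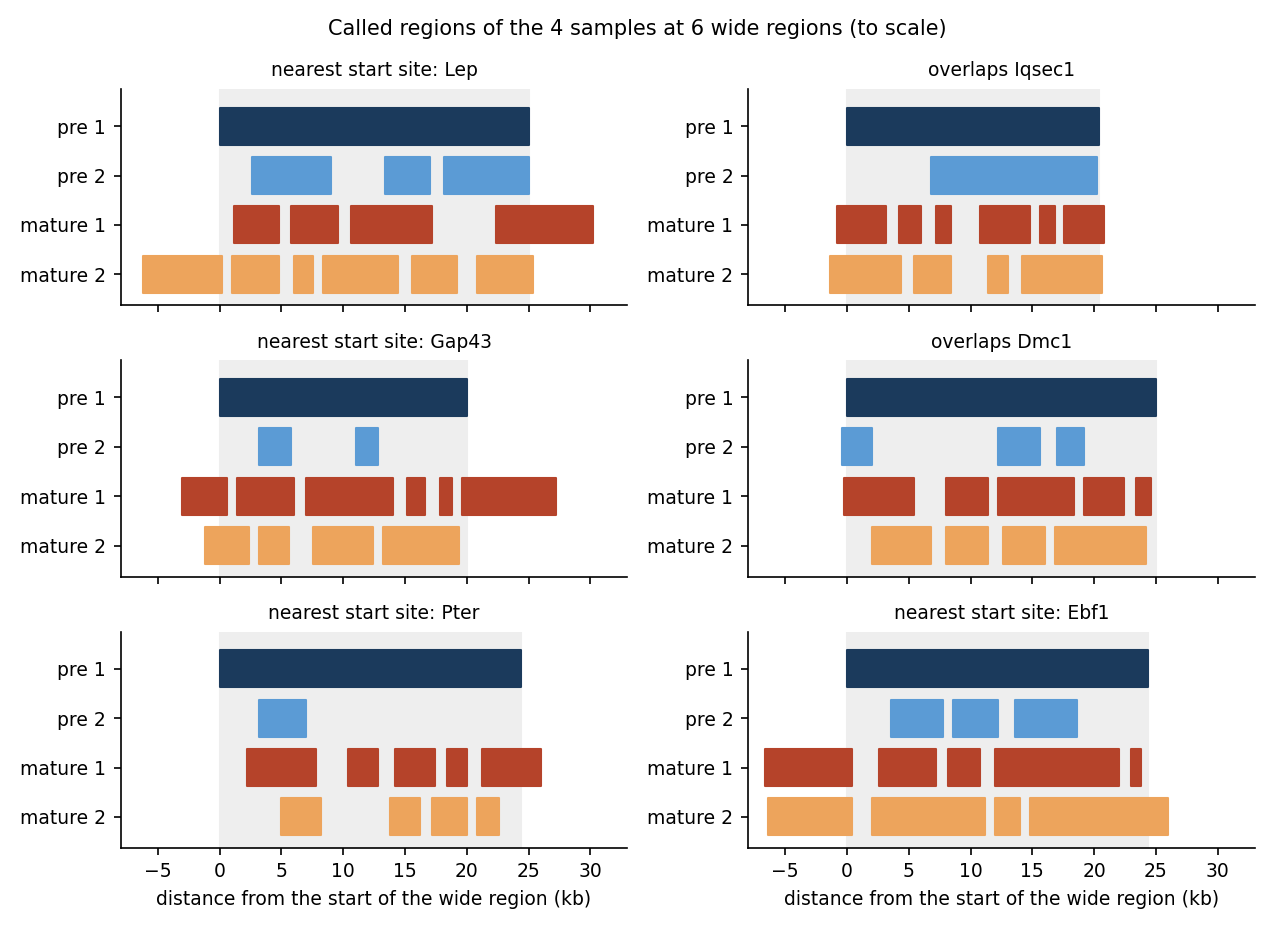
Called regions of the 4 samples at the 6 broken-up regions with the most pieces in the mature samples, drawn to scale. The x axis is the distance from the start of the wide region (kb), each row is a sample (pre, pre-adipocyte; mature, mature adipocyte), each bar is a called region, and grey marks the extent of the wide region. Narrow breaks separate most bars of the mature samples, and pre-adipocyte replicate 2 has between 1 and 3 regions at each locus.

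Broken-up regions that stayed widest in pre-adipocyte replicate 2 were led by chr16:92953001-92965000, 133 kb from the start of Runx1, a transcription factor of blood and bone development. It lay wholly within 1 region of pre-adipocyte replicate 2 and had 3 regions in each mature sample, which covered 65% and 70% of it. Folds were 1.79, 1.75, 1.77 and 1.81 in pre-adipocyte replicates 1 and 2 and mature adipocyte replicates 1 and 2. They describe different stretches, since pieces were taken whole and reached beyond the wide region. The next were chr4:105889001-105902600, with 86.8% of its length in 1 region of pre-adipocyte replicate 2, chr15:24448201-24468200 with 80% and chr14:68857001-68868800 with 79.7%. The last of these lay 166 kb from the start of Stc1, which encodes the secreted glycoprotein stanniocalcin.

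At the other end, 14 of the broken-up regions had 5 pieces in pre-adipocyte replicate 2, and the 4 longest of them are described. The first, chr15:71850601-71875600 in Col22a1, a collagen of tissue junctions, had 3 pieces in each mature sample and was covered over 77.6% of its length in pre-adipocyte replicate 2, against 56.8% and 50.4% in mature adipocyte replicates 1 and 2. The second, chr16:31440001-31464000, overlapped Bdh1, the mitochondrial enzyme that interconverts ketone bodies, and had 4 pieces in each mature sample. The third, chr12:9456001-9479800, lay 107 kb from the start of Osr1, a transcription factor of kidney and limb mesenchyme. The fourth, chr15:90687001-90710600, lay 19.4 kb from the start of Cpne8 and had 6 and 3 pieces in mature adipocyte replicates 1 and 2. These loci were picked for their number of pieces in pre-adipocyte replicate 2, so the comparison with the mature samples is a description.

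In the GENCODE M21 annotation, broken-up regions lay mostly outside protein-coding genes, as wide regions did in general. A protein-coding gene body was overlapped by 161 of 539 (29.9%, interval 26.0 to 33.9%), against 30.2% of other wide regions and 28.6% of those at matched lengths. Their midpoints were a median of 69.0 kb from the nearest protein-coding start, against 68.6 kb in the others, and 199 (36.9%, interval 32.8 to 41.1%) were over 100 kb away, against 44.9% at matched lengths. A protein-coding start site lay inside 43 of them (7.98%, interval 5.83 to 10.6%), against 6.32% at matched lengths.

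Start sites inside broken-up regions were found in pieces about as often as the coverage of the same regions would give. Of 61 protein-coding start sites, 44 (72.1%) lay in a piece of mature adipocyte replicate 1, where the regions that held them were covered over 72.2% of their length. In mature adipocyte replicate 2 the numbers were 34 (55.7%) and 65.5%, and in pre-adipocyte replicate 2 they were 23 (37.7%) and 35.6%. In other wide regions 592 start sites were in pieces in 43.9%, 41.2% and 25.2% of cases, with coverages of 57.9%, 56.6% and 35.7%. Start sites in those regions were thus less often in pieces than their surroundings, in all 3 samples.

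None of the gene groups tied to fat cells had a member in a broken-up region. This held for the 16 genes at which the study looked for occupancy, for 36 transcription factors of adipogenesis such as Pparg and Cebpa, for 44 genes of adipocyte function such as Fabp4, Adipoq and Lep itself, for 59 genes of the Wnt pathway and for 48 annotated genes of matrix and fibroblasts. Over all protein-coding genes, the body of 145 of 20780 (0.698%) overlapped a broken-up region, and at that background a count of 0 in lists of 16 to 59 genes is not a result about these genes. Other wide regions were met by 1, 3, 3, 7 and 6 genes of these lists, that is 6.25%, 8.33%, 6.82%, 11.9% and 12.5%, against 5.49% of all protein-coding genes. No vomeronasal receptor gene of 325 and no zinc finger gene of 358 was overlapped, and of 1086 olfactory receptor genes the only one was Olfr279. Other wide regions met 1.23%, 1.40% and 1.47% of these lists in the same order, also below the 5.49% of all protein-coding genes.

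Besides the olfactory receptors, 4 lists had members. They were developmental transcription factors (5 of 124, 4.03%), keratins (5 of 110, 4.55%), synaptic adhesion genes (2 of 82, 2.44%) and cadherins with protocadherins (1 of 89, 1.12%). The share over all protein-coding genes was 0.698%. Other wide regions met 8.87%, 17.3%, 17.1% and 7.87% of these lists, also above the 5.49% of all protein-coding genes. Such overlaps were thus not particular to broken-up regions. All but 1 of the developmental genes came from a single region, chr15:102956001-102976600, in the Hoxc cluster, whose genes set position along the body axis. It overlapped Hoxc10 and Hoxc11 with exons and reached into the annotated spans of Hoxc5 and Hoxc9. It held 683 ChIP reads at a fold of 1.37 in pre-adipocyte replicate 1, and had 1, 3 and 3 regions in pre-adipocyte replicate 2 and mature adipocyte replicates 1 and 2, with 37.9%, 68.0% and 73.8% of its length covered. The start of Hoxc10 lay outside the pieces in all 3. The fifth gene was Sox8, a transcription factor of the SoxE group, at chr17:25547401-25570400. This region had a high fold in every sample, with 2.32, 2.65, 2.40 and 2.62 in pre-adipocyte replicates 1 and 2 and mature adipocyte replicates 1 and 2.

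Keratins, the intermediate filament proteins of epithelia and hair, lie in gene clusters on chromosomes 11 and 15, and broken-up regions fell in both. The list also holds the keratin-associated proteins, which form the matrix of hair. The region chr15:101439001-101460400 overlapped Krt81 and Krt88, with 4, 3 and 3 regions in pre-adipocyte replicate 2 and mature adipocyte replicates 1 and 2. The region at Krt8, a keratin of simple epithelia, chr15:102003401-102024600, had 2, 3 and 5. On chromosome 11, regions at Krtap1-5, a keratin-associated protein, and Krt222 had 3 pieces in each mature sample and 1 and 2 in pre-adipocyte replicate 2. The 5 genes thus rested on 4 regions. Other wide regions met 19 genes of the list (17.3% of 110), a count that may include some of these 5. Among synaptic adhesion genes, which are very long, Lrrc4c held 1 broken-up region in an intron and Macrod2, a macrodomain enzyme rather than an adhesion protein, held 2. Pcdh15, a cadherin of hair cells in the inner ear, held 1 near its end.

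Of the genes with a start site in a broken-up region, 6 are described by the ChIP reads of that region, which ranged from 882 to 956 in pre-adipocyte replicate 1. They were Krt88, Rcan2, Pmp22, Pdk4, Aff3 and Fam92b. A start site of Rcan2, an inhibitor of calcineurin, lay in a piece in all 3 other samples. It is an internal start of a shorter transcript. The gene itself begins at chr17:43801351, outside the broken-up region chr17:44021401-44042000. That of Pdk4, shown above in sequence, lay in a piece of both mature samples and outside those of pre-adipocyte replicate 2, where 33.1% of the region was covered. The region at Pdk4, chr6:5485001-5508600, was among the weakly enriched ones, with folds of 1.22, 1.62, 1.28 and 1.28 in pre-adipocyte replicates 1 and 2 and mature adipocyte replicates 1 and 2. The starts of Krt88, of Pmp22, a myelin protein, and of Fam92b lay outside the pieces of mature adipocyte replicate 1 and in a piece of mature adipocyte replicate 2 and of pre-adipocyte replicate 2. The start of Aff3, a nuclear protein of the AF4 family, lay in a piece of pre-adipocyte replicate 2 alone. The mature replicates thus disagreed at 3 of these 6 start sites.

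Across the autosomes the number of broken-up regions broadly followed that of wide regions, while the share that met the rule varied. Chromosomes 2 and 15 held the most, with 66 and 63, and also the most wide regions, with 830 and 710. The share that met the rule ran from 0 of 11 on chromosome 7 and 3 of 173 on chromosome 3 (1.73%, interval 0.359 to 4.98%) to 49 of 361 on chromosome 11 (13.6%, interval 10.2 to 17.5%) and 17 of 118 on chromosome 18 (14.4%, interval 8.62 to 22.1%). The 8.18% of all wide regions lay outside the intervals of chromosomes 3, 11, 12 and 18. Wide regions were nearly missing from chromosome 7 in every sample, with 11 in pre-adipocyte replicate 1, 0 in pre-adipocyte replicate 2, and 1 and 2 in mature adipocyte replicates 1 and 2. Broken-up regions were a median of 1106 kb apart along a chromosome, and 89 of 521 neighbouring pairs (17.1%) were closer than 100 kb.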

How the data were processed

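Reads were mapped by the authors to mm10 (Bowtie 1.1.2, unique hits), cleared of duplicates (Picard) and turned into regions for each sample on its own, against the no-antibody library, with SICER 1.1, per the submitters' processing notes and the study's methods. For every region the deposited tables give the raw counts of ChIP and of control reads, the caller's p-value with its FDR (at most 0.001 in every table, stricter than the limit that the study's methods state), and a fold ratio of ChIP over control, which the authors scaled to library size. The control has no table of its own here. All 1000 regions with the same ends in 2 samples had the same control count in both, so the tables share 1 control library.

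Everything else was computed in Python 3.11.15 with numpy 2.4.6, scipy 1.17.1 and pandas 2.3.3. Lengths are end minus start plus 1, and positions are printed 1-based. Library size relative to control is the factor between the raw and the deposited fold. Overlap counts and covered lengths were tested on 300 simulated regions, with 0 wrong. Intervals are exact binomial (Clopper-Pearson) at 95%. No test was made, because the rule used the contrast between conditions, regions are not replicates, and 2 samples against 2 cannot give an exact two-sided permutation p under 0.333. Genes are those of GENCODE M21 (GRCm38, the assembly that mm10 names). GC, CpG and repeat content of whole regions were not analysed here. The regions described singly were the 6 with the most pieces in the mature samples, the 4 that 1 region of pre-adipocyte replicate 2 covered most, the 4 with the most regions of it (ties to the longer region), those at up to 5 genes per list, and those at 6 genes with a start site inside, by ChIP reads. The regions, gene lists and alternatives were chosen with earlier results of these data known. Columns of other samples numbered 0.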

Additional observations from a re-analysis of the deposited data

How the results depend on the processing

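The number of broken-up regions, 539, depended on nearly every setting, while coverage stayed lower in pre-adipocyte replicate 2 throughout. Of 43 alternative values, 9 stayed within the error (for the number of regions, within 1.5 times), 34 moved and 0 reversed. Only the coverage difference, the held-out excess and the control ratio could reverse. Counts and shares have no direction and could only stay or move. The number was 2752 with at least 2 regions in each mature sample, 60 with at least 4, 255 with at least 50% of each piece inside, 334 at an FDR of 1e-05 or less, 275 at a fold of at least 1.5, 14 with regions closer than 2000 bp joined, and 134 in wide regions of 10000 to 15000 bp. It ranged from 21 to 1430 when 1 sample was left out, with 1430 without mature adipocyte replicate 1, 1286 without mature adipocyte replicate 2, and 21 without pre-adipocyte replicate 1, when pre-adipocyte replicate 2 served as the parent.

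The share with 3 or more regions of pre-adipocyte replicate 2, 38.2%, was 25.3% with at least 2 regions, 51.7% with at least 4, 24.6% at the stricter FDR, 43.3% at the higher fold, 7.14% after joining, 15.7% and 45.8% in the shorter and longer wide regions, and 30.3 to 30.9% without either mature replicate. The share over all wide regions moved with some settings too. It was 17.6% with at least 2 regions, with at least 4 and without either mature replicate. At the stricter FDR it was 8.54%, at the higher fold 22.1% and after joining 3.26%. In the shorter and longer wide regions it was 7.84% and 35.3%. The difference in median coverage, -32.5 percentage points, was -34.8, -27.0, -31.0, -38.9, -27.5, -15.0 and -36.6 for at least 2, at least 4, 50% inside, FDR, fold, joining and shorter regions, and -34.0 to -31.9 without either mature replicate. The held-out excess of 11.0 points was 15.4 with at least 2 regions and 18.6 at the stricter FDR. The control ratio of 0.927 was 0.892 and 0.977 with pieces of mature adipocyte replicate 2 and pre-adipocyte replicate 2, and 0.904 with 4 or more pieces. The share at gene bodies, 29.9%, was 35.1% with 5 kb on both sides and 52.9% for all annotated genes. Apart from joining, fewer regions and other lengths by construction, the cause of these moves was not tested. No paired analysis was possible because every value is a count or share within single samples, with no fit to which a block could be added.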

Other observations

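The wide regions that the rule passed over differ among themselves in the sample it did not use. Those with exactly 2 pieces in both mature samples (1115) had 3 or more regions of pre-adipocyte replicate 2 in 17.1% of cases and a median length of 13200 bp, those with exactly 1 in both (1096) in 9.95% with 12200 bp, and those with none in both (132) in 2.27% with 11400 bp. Median folds in pre-adipocyte replicate 1 were 1.55, 1.47 and 1.34 in the same order. Among start sites of protein-coding genes in these other wide regions, 43.9% lay in pieces of mature adipocyte replicate 1, below the 57.9% coverage of the regions that held them.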
